A study of Mus with 8 samples.

Results

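Integrins are paired alpha and beta receptors that span the cell membrane and hold cells to the matrix around them. Laminins are three-chain glycoproteins that polymerise into the basement membrane, the sheet of matrix that surrounds each smooth muscle cell of the arterial wall, and nidogens, perlecan and agrin tie that sheet to collagen IV and to the cell. Dystroglycan is a second laminin receptor, held in the membrane with the sarcoglycans. The genes described here are 36 members of this system, chosen by name: 19 integrin subunits, 10 laminin chains, 4 nidogens and proteoglycans, and dystroglycan with 2 sarcoglycans. They had 73 of the 46237 probes on the array, and 27 of the 36 genes had a probe bright enough to be tested, among 11859 genes tested in all.

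The study asked how vascular smooth muscle cells that lose Tie2, the angiopoietin receptor encoded by Tek, differ from cells that keep it. Smooth muscle cells were grown from the aortas of male C57 black 6 mice aged 8 weeks and used at passage 1, in DMEM with serum. All 8 cultures carried floxed Tie2. The 4 WT cultures had no SM22α Cre, and the 4 KO cultures carried Cre under the SM22α (Tagln) promoter, which is active in smooth muscle and is known to be active in some other cells. Neither the source mouse of a culture nor the completeness of recombination is given in the labels, so a p-value here reflects the spread between cultures, which may be technical.

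Each culture was read on 1 Illumina bead array. Median scanner intensity lay between 94.7 and 128.1, and between 44.9% and 49.5% of probes had a detection p-value under 0.05. The single Tek probe was lower in KO, at 6.44, 7.42, 6.66 and 6.35 log2 units in WT1 to WT4 and 4.78, 5.56, 5.36 and 5.26 in KO1 to KO4. Whether that probe lies in the deleted part of the gene was not tested. The 4 WT arrays lay on slide 1 with KO1 and KO2, while KO3 and KO4 lay on slide 2. WT2 stood apart from the other cultures: it held the lowest value of the 8 for 21.3% of all genes tested and the highest for 21.0%. The smooth muscle marker genes were detected, with 11 of 12 tested, and their summed level was 15.39 in WT2 against 15.85 to 16.30 in the other 7 cultures. Macrophage and leukocyte markers were also detected, with 16 of 19 tested, and their summed levels were 15.45, 15.89, 12.68 and 13.66 in WT1 to WT4 and 15.03, 14.65, 12.16 and 13.10 in KO1 to KO4. Endothelial markers had 8 of 12 genes tested, with Kdr, Vwf, Tie1 and Erg not tested, and summed levels of 10.74 to 11.67 in WT and 11.43 to 11.99 in KO. Fewer cells of a type cannot be told apart here from less RNA per cell.

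No member passed the test. With limma and Benjamini-Hochberg adjustment over all 11859 genes, 0 of the 27 tested members had an adjusted p under 0.05, as did 0% of all genes, where the lowest adjusted p was 0.156. At an unadjusted limma p under 0.05 there were 4 members (14.8%) against 5.74% of all genes. Itga6 and Lamb1 were lower in KO, as were 3.13% of all genes at that limit, and Itga8 and Itgav were higher, as were 2.61%. The KO and WT values did not overlap for 3 members (11.1%), against 3.28% of all genes: Itga6 and Lamb1 were lower, as were 1.67% of all genes, and Itgav was higher, as were 1.61%. By sign alone, 16 tested members were higher in KO and 11 lower, with a median log2 fold change of 0.12, against 49.7% of all genes higher, 50.3% lower and a median of -0.0024. Values below are log2 intensities after background correction and quantile normalization, each gene is read from its brightest kept probe, and differences are KO minus WT unless said otherwise.

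**Figure D1:**
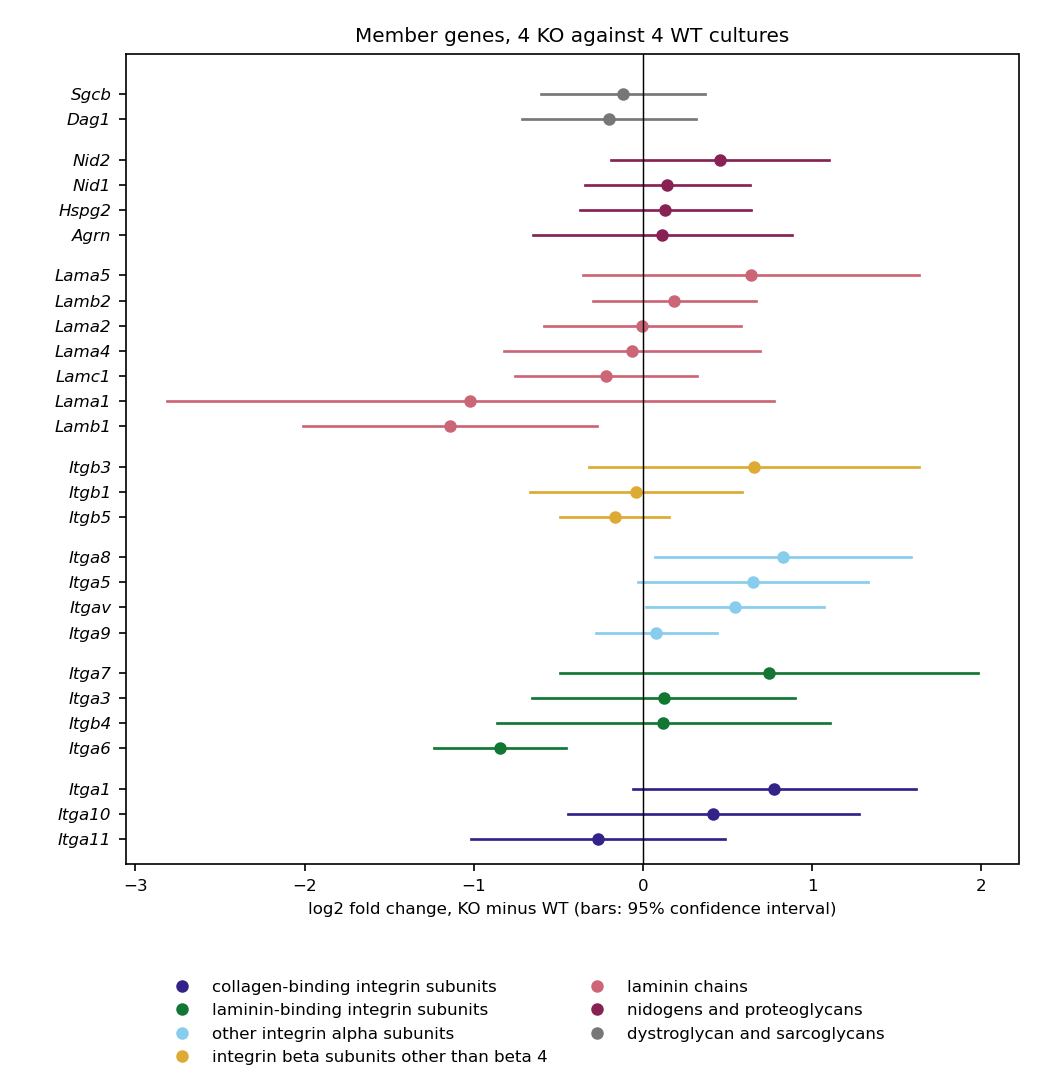
Log2 fold change of the 27 tested members, KO minus WT, with the 95% confidence interval of limma as bars, grouped and coloured by role. The intervals of Itga6 and Lamb1 lie below 0 and those of Itga8 and Itgav above 0, before any adjustment, and the other 23 cross 0.

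Among the laminin-binding subunits, Itga6 was the member with the smallest p. Itga6 encodes integrin alpha 6, which pairs with beta 1 or beta 4 as a laminin receptor. Its brightest probe read 6.68, 6.43, 6.66 and 6.28 in WT1 to WT4 and 5.81, 5.37, 5.87 and 5.63 in KO1 to KO4. Every KO value was below every WT value, and KO3 and KO4 of slide 2 were close to KO1 of slide 1, while KO2 was the lowest. The mean was 6.51 ± 0.19 in WT and 5.67 ± 0.23 in KO (SD, n = 4), a log2 fold change of -0.84 (SE 0.17). Over genes, the limma p was 9.2e-04, rank 12 of all genes tested, and the adjusted p was 0.81. An exact two-sided permutation test over the 70 assignments of the 8 cultures gave p = 0.0286, the smallest it can give. Within slide 1 the difference was -0.92. Integrin alpha 6 is also carried by endothelial and epithelial cells. Of their tested markers, 6 of 8 endothelial genes (median 0.23) and 2 of 3 epithelial genes were higher in KO by sign, against 49.7% of all genes. Krt5, Krt14, Krt18 and Epcam were not tested, and Cdh1 was lower (log2 fold change -0.55, SE 0.21). The KO values of Cdh1 all lay below its WT values (exact permutation p = 0.0286, the smallest possible). Of the tested macrophage and leukocyte markers, 14 of 16 were lower in KO by sign (median -0.88), against 50.3% of all genes, and 2 were higher. All 4 tested Schwann markers were higher by sign, as were 2 of 4 platelet markers. The part of any of these cell types in the Itga6 values was not tested.

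The signal of that probe was dim. In scanner intensity it read 151.2, 175.6, 214.7 and 172.4 in WT1 to WT4 and 156.1, 148.7, 141.6 and 128.9 in KO1 to KO4. The ranges overlap on this scale, on which arrays are not aligned: KO1 read more than WT1, whose array was the dimmest. Against 937 unannotated probes that carry the numbering of control probes, the Itga6 probe was above their 95th percentile on 4 of 4 WT arrays and 3 of 4 KO arrays. The size of the difference varied between settings. It was -0.34 in the authors' normalized values and -0.36 with no background correction, and the unadjusted p stayed under 0.05 in both. It was -0.05 when the background was estimated from the control-like probes without robust estimates, and -0.82 with them. In the former the SE was smaller too, at 0.014, and the unadjusted limma p was 0.0096.

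The other 3 Itga6 probes were dimmer, and the 1 of them that was tested gave no like difference. The second probe read 5.11, 4.58, 4.32 and 5.23 in WT1 to WT4 and 5.21, 4.51, 5.48 and 4.43 in KO1 to KO4. Its groups overlapped throughout, with a log2 fold change of 0.10 (SE 0.30), and the probe was detected on 2 arrays of each group. It was above the control-like 95th percentile on 0 WT arrays and 1 KO array. Its 95% confidence interval, -0.59 to 0.78, did not hold the -0.84 of the brightest probe, but overlapped that probe's own interval, -1.25 to -0.44. Whether the probes differ from each other was not tested, nor was the part of the second probe's low signal in its values. The remaining 2 probes of Itga6 were too dim to be tested, with scanner intensities of 86.2 to 116.3 and 92.0 to 139.7, above the control-like 95th percentile on no array. Averaging both kept probes gave -0.37 (SE 0.21), and the unadjusted limma p, 0.10, was then not under 0.05. Over all 21275 kept probes, 6.75% had an unadjusted p under 0.05 and 0% an adjusted one. At the brightness of the 2 probes left out, a difference was not detectable.

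**Figure D2:**
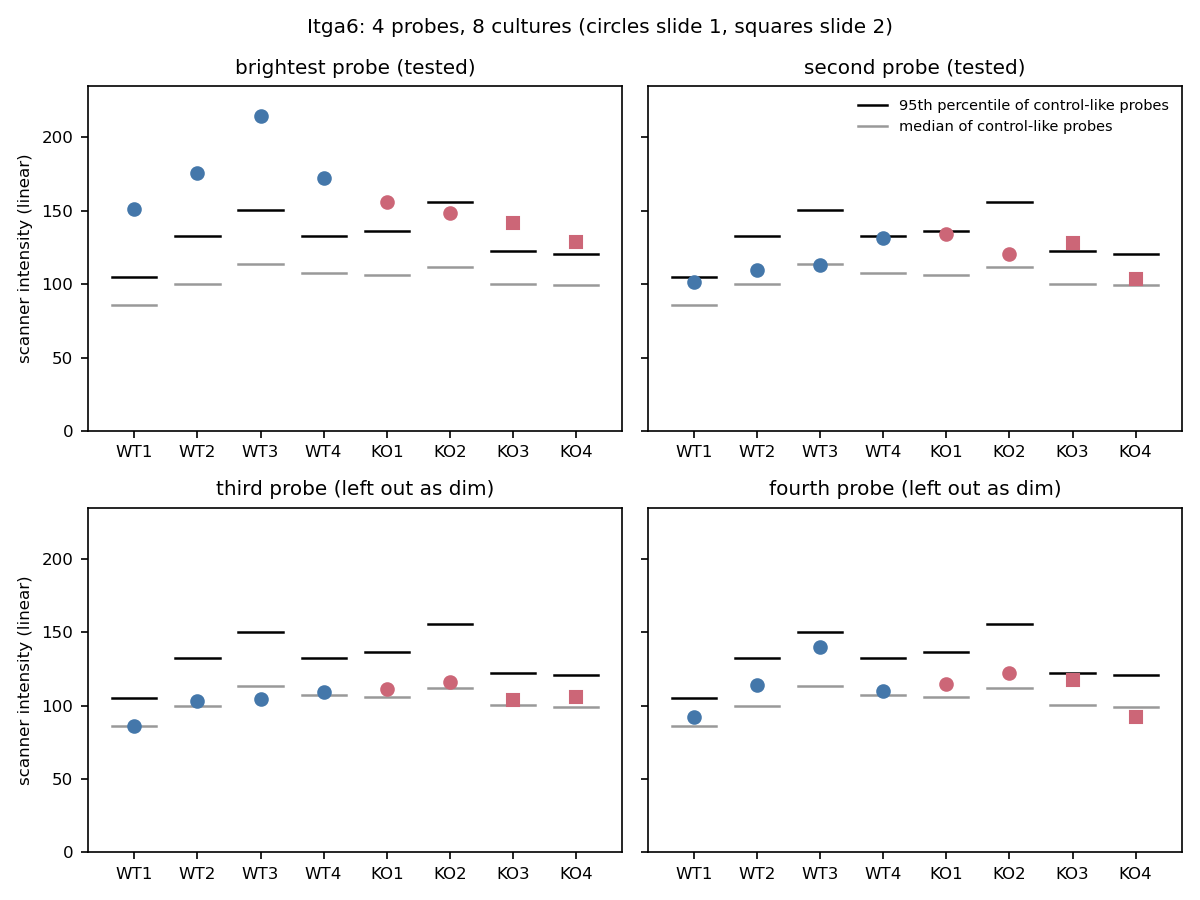
Scanner intensity (linear, not normalized) of the 4 Itga6 probes in each of the 8 cultures, with the median (grey bar) and 95th percentile (black bar) of 937 control-like probes on the same array. The brightest probe lies above the black bar on 7 of 8 arrays, and the other probes lie at or below it on nearly all.

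No other laminin-binding subunit had an unadjusted p under 0.05. Itgb4, the beta 4 subunit that pairs with alpha 6 alone, differed by 0.12 (SE 0.43), and its second probe by -0.01. Itga3, another laminin receptor subunit, differed by 0.12 (SE 0.34). It was 5.97 in WT2 and 7.25 to 7.47 in the other WT cultures, and without WT2 the difference was -0.23.

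Itga7 encodes integrin alpha 7, the laminin receptor subunit of muscle. It read 7.98, 6.96, 9.18 and 8.06 in WT1 to WT4 and 7.91, 8.79, 10.02 and 8.46 in KO1 to KO4. The groups overlapped, with the highest values in KO3 and WT3 and the lowest in WT2. KO exceeded WT by 0.75 on average (SE 0.54), by 0.30 within slide 1, by 0.34 without KO3, by 0.38 without WT2 and by 1.12 without WT3. Schwann cell markers, of which 4 were tested, were also highest in KO3 (summed level 13.71) and WT3 (12.98) and lowest in WT2 (11.40). Their part in the Itga7 values was not tested.

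Of the laminin chains, Lamb1 was lower in KO and the rest overlapped. Lamb1 encodes the beta 1 chain, which is shared by several laminin trimers. It read 7.47, 8.04, 7.50 and 7.77 in WT1 to WT4 and 7.10, 7.18, 5.38 and 6.56 in KO1 to KO4. All KO values lay below all WT values, but KO1 and KO2 were close to the WT range and both slide 2 cultures were far lower. Means were 7.69 ± 0.27 and 6.55 ± 0.83 (SD, n = 4), a log2 fold change of -1.14 (SE 0.38). limma gave an unadjusted p of 0.016 and an adjusted p of 0.83, and the exact two-sided permutation p was 0.0286, the smallest possible. The difference was -0.65 both in the authors' normalized values and with no background correction, -0.14 with the background from control-like probes, and -0.75 without KO3.

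Slide moved with this difference. The mean of KO3 and KO4 was 1.17 log2 units below that of KO1 and KO2 (a difference of -1.17), and within slide 1 the KO minus WT difference was -0.56 (SE 0.22). With slide as a block in limma the unadjusted p was 0.137. Lamb1 was the 1 tested member whose slide 2 values were both below all 6 slide 1 values, as were those of 9.01% of all genes. Lamb2 and Nid2 were the 2 whose slide 2 values were both above them, against 9.41%. Among matrix genes chosen after their values were seen, the KO slide difference was -1.51 for Col1a2, -1.37 for Col3a1 and -1.91 for Postn, and 0.35 for Col1a1. Since slide 2 held KO cultures alone, slide and culture cannot be told apart within KO.

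Lama1 encodes the alpha 1 chain, best known from embryonic basement membranes. It read 5.93, 8.20, 8.05 and 7.97 in WT1 to WT4 and 6.04, 7.52, 4.55 and 7.93 in KO1 to KO4. It was low in WT1, KO1 and KO3 and high in the others, so that both groups held low and high cultures. The log2 fold change of -1.02 had an SE of 0.79. Without KO3 it was -0.37 and without WT1 it was -1.56.

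Lama5 encodes the alpha 5 chain, a major chain of the mature vessel wall. It read 6.04, 5.76, 6.34 and 6.85 in WT1 to WT4 and 6.74, 5.93, 8.10 and 6.77 in KO1 to KO4. The groups overlapped and KO3 was the highest of the 8. The mean difference was 0.64 (SE 0.44), with 0.23 without KO3 and 0.09 within slide 1.

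The other laminin chains differed little on average. Lama2, the alpha 2 chain of muscle laminin, differed by -0.01 (SE 0.26). Lama4, the alpha 4 chain of vascular basement membranes, differed by -0.06 (SE 0.33) on a probe detected on 5 of 8 arrays. Lamb2 differed by 0.18 (SE 0.21). Lamc1, the gamma 1 chain that most laminins contain, differed by -0.22 (SE 0.24), and its second probe by -0.13. These intervals still admit sizeable differences, as that of Lama2 ran from -0.59 to 0.58.

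On their brightest probes, the 4 tested integrin alpha subunits that bind fibronectin and related ligands were all higher in KO by sign, as were 49.7% of all genes. Of these 4, 2 had an unadjusted p under 0.05, against 5.74% of all genes. Itgav encodes alpha v, which binds vitronectin and other proteins through their RGD motif. It read 8.40, 7.93, 8.47 and 8.48 in WT1 to WT4 and 9.45, 8.55, 8.67 and 8.79 in KO1 to KO4. No KO value fell within the WT range, though KO2 was close to it and KO1 and WT2 stood out at either end. The log2 fold change was 0.54 (SE 0.23, limma p = 0.044, adjusted p = 0.83) and the exact two-sided permutation p was 0.0286, the smallest possible. Within slide 1 it was 0.68. Without WT2 it was 0.41 and without KO1 it was 0.35, and in neither was the unadjusted p under 0.05. With the background from control-like probes it was 0.23.

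A second Itgav probe was detected on 0 of 4 WT arrays and 4 of 4 KO arrays. It passed the filter through the KO arrays alone, which favours a higher KO value, so it is no separate support for the first probe. Its measured values were 4.29, 4.64, 4.41 and 4.63 in WT and 4.97, 5.15, 5.60 and 4.62 in KO. Because no WT array was called detected, the difference was computed as a bound on those calls, 1.41-fold higher in KO (limma adjusted p = 0.73 over all kept probes). KO4, called detected, lay just below WT2 and WT4, which were not, so the bound is not a firm lower limit. The bound rests on the detection p-values, which called 13.3% to 15.0% of control-like probes detected on an array, and the probe was above their 95th percentile on 0 WT arrays and 1 KO array. That bound sets the mean of the KO arrays against the lowest detected signal on each WT array, or the probe's own where higher.

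Itga8 encodes alpha 8, a receptor subunit for nephronectin and fibronectin that smooth muscle carries. It read 4.93, 4.21, 4.37 and 5.20 in WT1 to WT4 and 5.86, 5.27, 6.09 and 4.79 in KO1 to KO4. KO4 lay within the WT range and the other 3 KO cultures lay above it. The log2 fold change was 0.83 (SE 0.33, limma p = 0.036, adjusted p = 0.83), and the exact two-sided permutation p was 0.114. The probe was dim: it was detected on 2 WT and 3 KO arrays and was above the control-like 95th percentile on 0 WT and 2 KO arrays. The authors' normalized values gave 0.32, and the background from control-like probes gave 0.03. Its ligand Npnt differed by 0.35 (SE 0.35).

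Itga5 encodes alpha 5, which with beta 1 forms the main fibronectin receptor. It read 10.05, 9.13, 10.13 and 10.54 in WT1 to WT4 and 10.49, 10.67, 10.31 and 10.98 in KO1 to KO4. WT4 overlapped the KO cultures, and WT2 was far below all others. On average KO was higher by 0.65 (SE 0.30, limma p = 0.058, exact permutation p = 0.0857). The second probe gave 0.62, and without WT2 the first gave 0.38. Fn1, which encodes fibronectin, differed by 0.07 (SE 0.25). Itga9, a receptor subunit for tenascin C and other ligands, differed by 0.08 (SE 0.16), and its second probe by -0.11 (SE 0.65). Tnc itself differed by 0.66 (SE 0.32, exact permutation p = 0.0857).

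**Figure D3:**
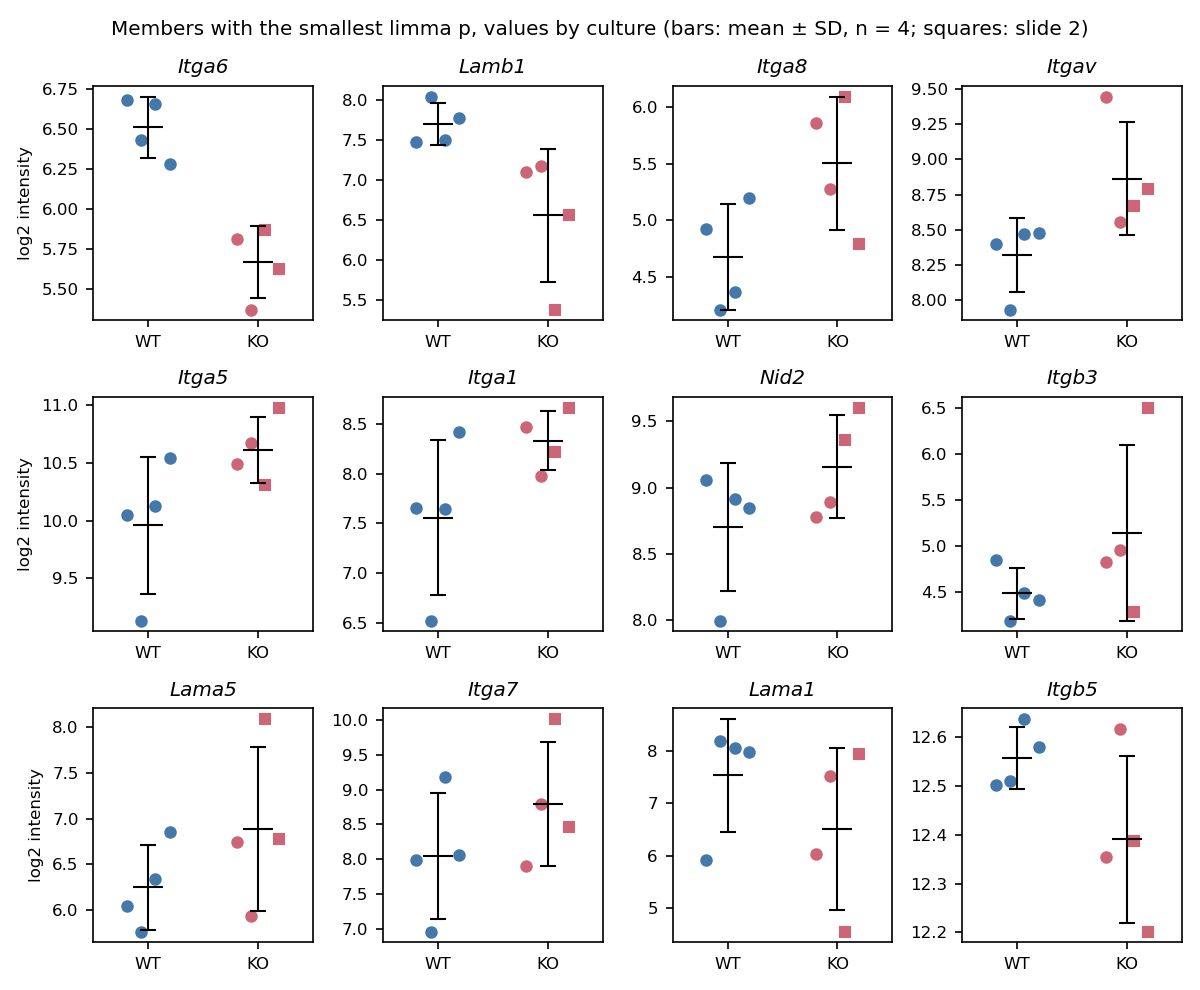
Log2 intensity by culture of the 12 members with the smallest limma p, in WT (blue) and KO (red), with the mean and SD of 4 cultures as bars. Circles are slide 1 and squares slide 2. Only Itga6, Lamb1 and Itgav show no overlap among these 12, and WT2 is the low point of Itga1, Itga5, Itga7, Itga8, Itgav, Itgb3, Lama5 and Nid2.

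Collagen receptor subunits were mixed. Itga1 encodes alpha 1, which with beta 1 binds collagen IV and is abundant in smooth muscle. It read 7.66, 6.52, 7.64 and 8.42 in WT1 to WT4 and 8.47, 7.98, 8.22 and 8.67 in KO1 to KO4. WT4 lay among the KO cultures and WT2 lay far below the rest. The mean difference was 0.78 (SE 0.37, limma p = 0.065, exact permutation p = 0.0857). A second, dim probe gave 0.39, and without WT2 the first gave 0.43. The collagen IV genes Col4a1 and Col4a2 differed by 0.05 (SE 0.16) and 0.08 (SE 0.24).

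Itga10 and Itga11 encode the other collagen receptor subunits that were tested. Itga10 differed by 0.41 (SE 0.38), with KO3 at 7.49 and the other 7 cultures at 5.43 to 6.37, and it differed by 0.04 without KO3 and 0.73 without KO4. Itga11, known as a receptor for fibrillar collagen on fibroblasts, differed by -0.27 (SE 0.33) on its brightest probe, -0.14 on the second and 0.46 on a dim probe. The brightest gave -0.02 without KO1 and -0.45 without WT2. Of its collagens, Col1a1 differed by -0.08 (SE 0.31) and Col3a1 by -1.21 (SE 0.44, limma p = 0.024, adjusted p = 0.83, exact permutation p = 0.0857), with the slide pattern given above.

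The beta subunits showed no shared direction. Itgb1, the partner of most alpha subunits here, differed by -0.04 (SE 0.28), and its second probe by 0.29 (SE 0.25). Itgb3 encodes beta 3, which pairs with alpha v. It read 4.85, 4.19, 4.49 and 4.42 in WT1 to WT4 and 4.83, 4.95, 4.28 and 6.50 in KO1 to KO4. KO4 alone was high, and the other KO cultures lay in or near the WT range on a probe detected on 1 WT and 3 KO arrays. Its mean difference was 0.65 (SE 0.43), or 0.20 without KO4.

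Itgb5 encodes beta 5, another partner of alpha v. It read 12.50, 12.51, 12.64 and 12.58 in WT1 to WT4 and 12.36, 12.62, 12.39 and 12.20 in KO1 to KO4. WT values were tight, and KO2 lay among them while the other 3 KO cultures lay below. Their means differed by -0.17 (SE 0.14, exact permutation p = 0.114), and by -0.10 without KO4.

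All 4 linkers of the basement membrane were tested, and by sign all were higher in KO, as were 49.7% of all genes. None had an unadjusted p under 0.05. The sign was not stable: within slide 1 Agrn was -0.15 and Nid1 -0.057. With 1 culture left out, Agrn fell as low as -0.13 and Hspg2 as low as -0.018. Nid2 encodes nidogen 2, which joins the laminin gamma 1 chain to collagen IV. It read 9.06, 7.99, 8.91 and 8.84 in WT1 to WT4 and 8.77, 8.89, 9.36 and 9.60 in KO1 to KO4. KO1 and KO2 lay among the WT cultures, KO3 and KO4 above them and WT2 below all others. The mean difference was 0.45 (SE 0.28, exact permutation p = 0.257), 0.13 within slide 1 and 0.22 without WT2.

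Nid1, which encodes nidogen 1, differed by 0.14 (SE 0.21), and its dim second probe by 0.71 (SE 0.44). Hspg2 encodes perlecan, the heparan sulfate proteoglycan of vascular basement membranes. Its 3 probes differed by 0.13, 0.22 and 0.00. Agrn, which encodes agrin, a ligand of dystroglycan, differed by 0.11 (SE 0.34). It was highest in KO3 (12.67) and WT3 (12.40) and lowest in WT2 (11.25), the same cultures as for Itga7 and the Schwann markers.

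Dag1 encodes dystroglycan, which binds laminin alpha 2, agrin and perlecan. It differed by -0.20 (SE 0.23) on its brightest probe and -0.13 on the second. On the first, KO4 was 9.23 and the other KO cultures lay between 10.01 and 10.15. Sgcb, the beta sarcoglycan of the smooth and striated muscle complex, differed by -0.12 (SE 0.21), and its second probe by 0.19.

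WT2 was the lowest of the 8 cultures for 15 of the 27 tested members (55.6%), against 21.3% of all genes, and without it 14 members were higher in KO and the median log2 fold change was 0.01. Those 15 were Itga1, Itga3, Itga5, Itga7, Itga8, Itgav, Itgb1, Itgb3, Itgb4, Agrn, Hspg2, Lama2, Lama5, Lamb2 and Nid2. The same culture was the highest for Lama1, Lama4 and Lamb1. WT2 also had the lowest smooth muscle sum, and the highest sums of macrophage markers and of adventitial fibroblast markers (15.48, against 14.40 to 14.96 in the other cultures). All 11 tested smooth muscle markers were higher in KO by sign, against 49.7% of all genes, with a median of 0.51 and with Acta2 at 0.01. Of the 11, 2 had an unadjusted p under 0.05, against 5.74% of all genes. WT2 was the lowest culture for all of them but Mylk and Des. Of the 16 tested macrophage markers, 14 were lower by sign, against 50.3% of all genes, with a median of -0.88 and none with an unadjusted p under 0.05. The part of these cell type differences in the members' values was not tested.

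**Figure D4:**
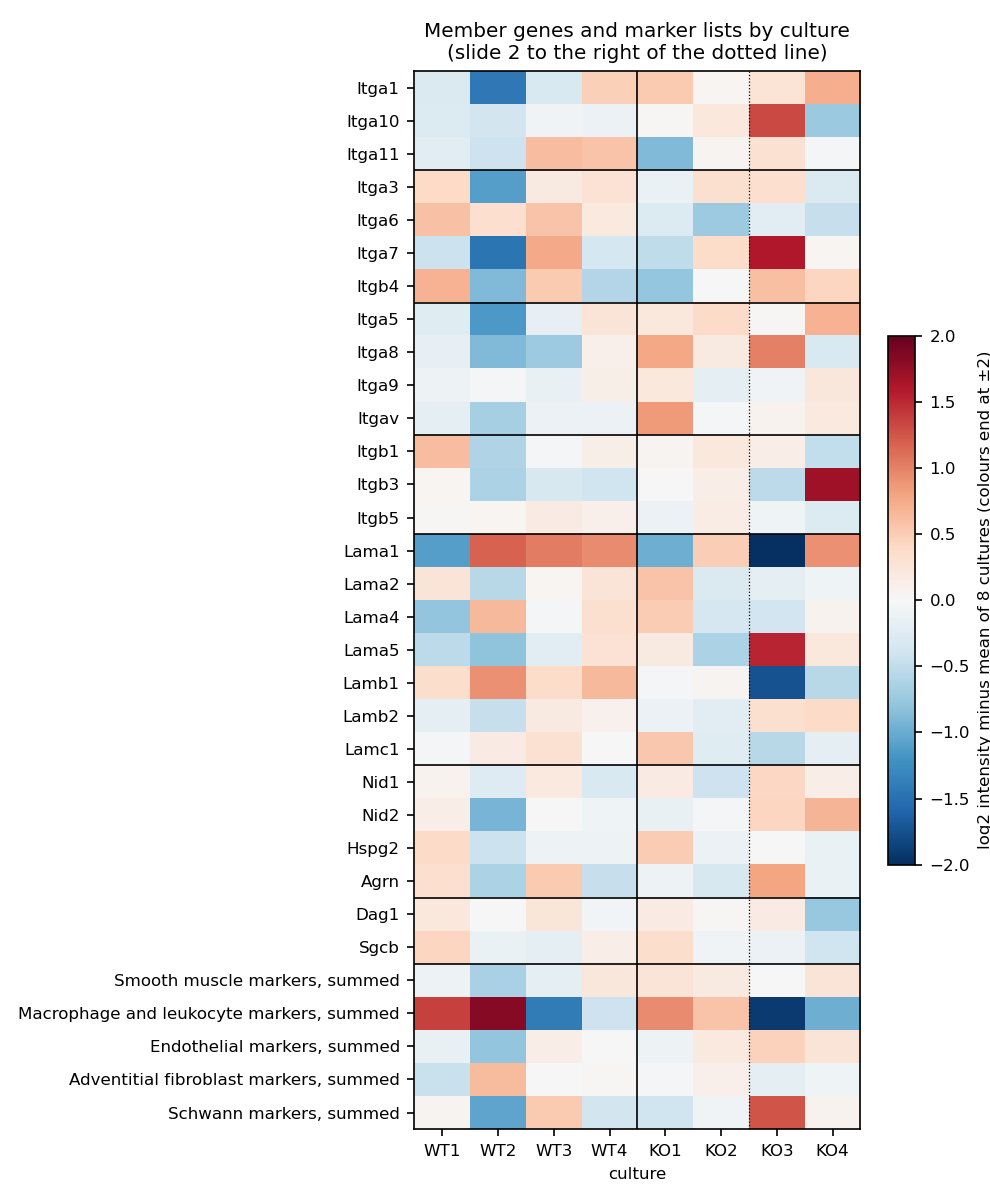
Each tested member's log2 intensity in each culture minus its mean over the 8 cultures (blue lower, red higher), grouped by role, with summed marker lists for 5 cell types beneath. The WT2 column is blue for most integrins, KO3 and WT3 are red for Itga7, and Lamb1 is darkest blue in KO3 on slide 2.

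No test was made for 9 members, of which no probe was detected on at least 4 of 8 arrays. They were Itga2 (a collagen receptor subunit), Itga4 (a Vcam1 and fibronectin receptor subunit), Itgb6, Itgb7, Itgb8, the laminin chains Lama3, Lamb3 and Lamc3, and Sgce (epsilon sarcoglycan). Of the 31 member probes left out in all, 25 were above the control-like 95th percentile on no array and none on more than 1. Itga4 had 6 such probes and Itgb6 and Lamc3 had 4 each. At this signal a difference in these genes was not detectable, and their absence from the cells is not shown.

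Probes of one gene did not always move together. Of 13 members with several kept probes, 7 had the same sign on all of them. That count includes Itgav, whose second probe passed the filter through the KO arrays alone and is no separate support. It also includes Hspg2, whose last probe differed by only 0.0024. Of the 7 whose kept probes were all detected on 8 arrays, 4 did. Itga5, Hspg2, Lamc1 and Dag1 were these 4, and Itgb1, Itgb4 and Sgcb were the others.

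In the lists of neighbouring parts of the pathway, no gene passed after adjustment, and counts at an unadjusted p under 0.05 stand against 5.74% of all genes. Of 24 tested ligands outside the members, Tgfb3 was higher in KO by 1.03 (SE 0.38) and Col3a1 lower, with a list median of 0.06. None of 10 tested genes of the dystrophin complex and of dystroglycan processing had an unadjusted p under 0.05, with a median of 0.15. Of 19 tested integrin adaptors and activators, Lims2, which encodes the adaptor PINCH2 that binds integrin-linked kinase, had such a p, with a list median of 0.15. It was 10.16 ± 0.82 in WT and 11.22 ± 0.23 in KO (SD, n = 4). The lowest KO value, 11.01, lay above the highest WT value, 10.79, WT2 was again lowest, and the difference was 1.06 (SE 0.37, limma p = 0.020, adjusted p = 0.83, exact permutation p = 0.0286). Of 5 tested genes of other basement membrane components, Bcam, a receptor for laminin alpha 5, was higher by 0.46 (SE 0.19) with overlapping groups.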

How the data were processed

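The deposited scanner table holds, per the file headers, the mean intensity of each probe's beads, their SD, the bead count and a detection p-value, not normalized between arrays. A second deposited table holds intensities that the authors normalized; how they did so is not stated in these sources. In the first table, values do not belong to the probe identifiers printed beside them, so its 46237 rows were matched to the second table by their ranks within the 8 arrays, all one to one (Spearman correlation at least 0.9999 per array, against -0.0083 to -0.0047 by identifier).

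Symbols came from the platform annotation, updated through the RefSeq gene table, and 2 member probes matched through an older symbol. Intensities were processed with neqc (limma 3.58.1, R 4.3.3), with the background from the detection p-values and an offset of 16, quantile normalization and log2. Probes detected (p under 0.05) on at least 4 of 8 arrays were kept, 21275 in all, and each gene was its brightest kept probe. limma compared 4 KO with 4 WT, with no covariate. The script was tested on simulated data. Summed marker levels are log2 of summed linear values.

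All members were accounted for, with values by culture for Itga6, Itga8 and the 12 members of smallest p. Members and lists were chosen with earlier results of these data known. Alternatives covered background, filter, probe choice, the authors' values, slide, replicate number and left-out cultures. The number of arrays limits the precision.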

Additional observations from a re-analysis of the deposited data

Results flagged for a closer look

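A culture lay far from the other 3 of its group, by Dixon's criterion, in 4 of the 54 groups of member values, where chance gives about 1 in 20. Dag1, which encodes dystroglycan, was 9.23 in KO4, against 10.01 to 10.15 in the other KO cultures. Itga3 was 5.97 in WT2, against 7.25 to 7.47. Itgav was 7.93 in WT2, against 8.40 to 8.48. Lama1 was 5.93 in WT1, against 7.97 to 8.20.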

How the results depend on the processing

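No gene, member or not, had an adjusted p under 0.05 under any alternative run. The sign was the same under every alternative that tested the gene for 13 of 27 tested members. They were Itga1, Itga5, Itga6, Itga7, Itga8, Itga10, Itgav, Itgb3, Itgb5, Lama1, Lama5, Lamb1 and Nid2. Itga8 and Itgb3 were left out by the stricter filters, detection on all 8 arrays and the filter on control-like probes, so their sign was not tested there. For the differences that turned sign, given next, causes were not tested. The number of members with an unadjusted p under 0.05, 4, was 2 with the background from control-like probes (5.23% of all genes), 2 under the slide block (Itga6 and Itgav, 4.59%), 3 within slide 1 (Itga6, Itga8 and Lamb1, 4.17%), 6 in the authors' values (5.43%) and 1 (Itga6, 4.70%) without WT1 and WT2. It was 2 to 5 when 1 culture was left out (3.91% to 8.40%), with 2 without WT2 and 2 without WT3 (Itga6 and Lamb1 in both). With the mean of kept probes the number was again 4 (5.97% of all genes), with Itga1 gained and Itga6 lost. The median over members ran from 0.011 without WT2 to 0.20 without WT3. Leaving out WT1 and WT2 together, the robust background estimates and the filter on control-like probes were chosen after seeing the data.

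Within slide 1, and equally with slide as a block, Agrn was -0.15, Itgb1 0.11, Itgb4 -0.33, Lama2 0.13, Lama4 0.057, Lamb2 -0.080, Lamc1 0.039 (second probe 0.092), Nid1 -0.057, Sgcb 0.086 (second probe -0.062) and the last Hspg2 probe -0.21. With the mean of kept probes, Itga11 was 0.019, Itga9 -0.014, Itgb1 0.12 and Sgcb 0.033. Without WT1 and WT2, Itga3 was -0.17, Lamb2 -0.041, the last Hspg2 probe -0.16, the last Itga11 probe -0.16, the second Itga9 probe 0.018 and the second Itgb1 probe -0.018. With the background from control-like probes, Lama2 was 0.0008, the last Hspg2 probe -0.002, the second Itga9 probe 0.0089 and the second Itgb4 probe 0.011. In the authors' values, Lama2 was 0.023, the second Itga9 probe 0.033 and the second Itgb4 probe 0.053. Without background correction, the last Hspg2 probe was -0.0011, the second Itga9 probe 0.0093 and the second Itgb4 probe 0.018. With normexp and an offset of 50, the last Hspg2 probe was -0.0004 and the second Itgb4 probe 0.015.

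When 1 culture was left out, Agrn ran from -0.13 to 0.31, Dag1 from -0.29 to 0.017, Hspg2 from -0.018 to 0.28 (last probe -0.18 to 0.21), Itga3 from -0.23 to 0.27, Itgb1 from -0.25 to 0.16, Itgb4 from -0.15 to 0.40 (second probe -0.33 to 0.43), Lama2 from -0.19 to 0.092, Lama4 from -0.34 to 0.14 and Sgcb from -0.26 to 0.0054. The second probes of Itga11, Itga6, Itga9 and Lamc1 ran from -0.36 to 0.16, -0.096 to 0.25, -0.58 to 0.33 and -0.35 to 0.016.

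WT and KO replicates share numbers, but nothing in the labels ties them. Same-numbered cultures had correlations of 0.32, 0.21, 0.29 and 0.063 between their deviations from the group means, and each culture correlated best with its own number, a hint from the data and not the design. With the replicate number as a block, 5 members had an unadjusted p under 0.05, against 8.47% of all genes, and 0 an adjusted one. Itga1 and Itga5 were gained and Itga8 was lost. Sizes also varied with the background setting: with control-like probes Lama1 was -0.12, Lama5 0.08, Itga10 0.04 and Itga1 0.16, and in the authors' values they were -0.52, 0.40, 0.25 and 0.56. Of control-like probes, 13.3% to 15.0% were called detected, so a detected probe can still be near background.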
